A study of Mus musculus with 24 samples.

Results

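The cluster of miR-132 and miR-212 is a pair of neighbouring microRNA (miRNA) hairpins, and its 4 mature arms, mmu-miR-132-3p, mmu-miR-132-5p, mmu-miR-212-5p and mmu-miR-212-3p, were taken by name from the 1907 mature miRNA names of a small RNA count table. All 4 arms passed the filter on low counts, as did 558 names in all. The tissue was mouse subcutaneous adipose, a white fat depot beneath the skin, taken after 1 day, 1 week or 3 weeks on either control or high-fat feed. Each of these 6 groups held 4 libraries, 24 in all, made from total RNA. According to its title the study found less DICER, which cuts miRNA hairpins into mature arms, on the high-fat diet, and the diets were compared at each time. The sources used here give no strain, sex or age and do not say whether each library is a different mouse. The p-values therefore rest on library-to-library spread, which may be technical.

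miRNAs guide silencing complexes to messenger RNAs that pair with their seed, a short stretch near the 5′ end, and lower the output of those messengers. Each hairpin yields an arm from either side (5p and 3p). The hairpins of miR-132 and miR-212 are cut from a shared primary transcript and are best known from neurons, where the transcription factor CREB induces them in response to activity. They are also known to be induced by growth factors in endothelial cells and by Toll-like receptor ligands in monocytes and macrophages. Rasa1, a brake on Ras signalling, is a well-known target of miR-132.

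The mature sequences are shown because the seed sets which arms can share targets and because the 3p arms differ at few positions. They are written 5′ to 3′ from RefSeq (build GRCm38.p6), with the seed, bases 2 to 8, in capitals.
mmu-miR-132-3p: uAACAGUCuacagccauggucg
mmu-miR-212-3p: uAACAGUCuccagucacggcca
mmu-miR-132-5p: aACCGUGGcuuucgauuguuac
mmu-miR-212-5p: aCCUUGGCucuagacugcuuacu
miR-132-3p and miR-212-3p had the same seed and were identical at 17 of 22 positions, the first 9 included. Counted from the 5′ end, with the miR-132-3p base first, the substitutions were A10C, C14U, U17C, U20C and G22A. The 5p arms had seeds of their own. Of the 1907 names, 1623 had a mature sequence in the RefSeq table, and none outside the cluster carried the seed of any of the 4 arms.

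Both hairpins lie on the plus strand of mouse chromosome 11, in intron 1 of the 3-exon non-coding transcript 1700016P03Rik-201 (GENCODE annotation of GRCm38). Mir212 spans chr11:75173388-75173478 and Mir132 spans chr11:75173682-75173747, with 203 bases between them. The nearest protein-coding genes on either side, Hic1 and Ovca2, are both on the minus strand. The hairpins are shown with both mature arms in capitals, to place each arm in its precursor.
Mir212: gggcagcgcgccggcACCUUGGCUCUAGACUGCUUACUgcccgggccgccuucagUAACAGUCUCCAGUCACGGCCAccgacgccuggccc
Mir132: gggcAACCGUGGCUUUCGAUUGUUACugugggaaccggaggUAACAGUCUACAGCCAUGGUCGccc

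The libraries held between 1.99 and 16.3 M miRNA counts (M, mega), and the median was 5.30 M. Depth differed by diet. At day 1 control libraries held 5.36 to 11.3 M and high-fat libraries 1.99 to 5.28 M. At week 1 they held 5.315 to 16.3 M and 2.54 to 4.15 M, so the diets overlapped at neither time. At week 3 the ranges overlapped, at 4.86 to 7.10 M and 3.11 to 11.97 M. Levels below are CPM, that is counts for each 1 M of a library's TMM-scaled (edgeR) total. All 5 adipocyte-enriched miRNAs checked against the tissue label were past the filter and together held 241944 to 480454 CPM. Their levels were uneven, from a mean log2 CPM of 17.3 for miR-148a-3p down to 4.36 for miR-26a-5p. Skeletal muscle miRNAs (5 of 6 past the filter, miR-208b-3p not) summed to between 24.04 and 80409 CPM. The libraries highest in them were high-fat week 1 replicate 2, high-fat week 3 replicate 4 and control week 1 replicate 4. Of 6 neuronal markers, 3 passed the filter (miR-124-3p, miR-137-3p and miR-219a-5p did not), and the tested ones summed to 3.30 to 9.89 CPM. How reads that map to more than 1 place were counted was not stated, and its part in low marker counts was not tested. For example, miR-24-3p had a mean log2 CPM of 0.18, beside 11.1 for miR-24-2-5p.

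The cluster was expressed at a moderate to low level, and the 4 arms were far from equal. miR-132-3p averaged 134.5 CPM over the 24 libraries, rank 172 of the 558 tested miRNAs. miR-132-5p averaged 29.0 CPM (rank 284), miR-212-5p 8.30 CPM (rank 369) and miR-212-3p 6.81 CPM (rank 385). The lowest miR-132-3p library, at 94.0 CPM, lay above the highest miR-132-5p library, at 51.3 CPM. The lowest miR-132-5p library, at 18.8 CPM, lay above every miR-212 value, whereas the ranges of the miR-212 arms overlapped. Bulk libraries cannot tell fewer cells that make these miRNAs from less of them per cell.

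miR-132-3p, the arm regarded as the main product of its hairpin, measured 143.1, 113.9, 124.7 and 143.8 CPM in the control libraries at day 1. The high-fat libraries at day 1 held 124.8, 121.5, 183.7 and 130.2 CPM. The ranges overlapped, and replicate 3 of the high-fat group stood above the rest. At week 1 the control values were 120.5, 101.0, 143.7 and 233.7 CPM. The high-fat values at week 1 were 107.7, 94.0, 123.3 and 158.9 CPM. The control replicate 4 was the highest of all 24 libraries, and the other 3 control libraries lay inside the high-fat range. At week 3 the control libraries measured 127.3, 148.3, 96.0 and 163.2 CPM. The high-fat libraries at week 3 measured 142.7, 155.0, 108.1 and 119.7 CPM, all within the control range. Group means ran from 121.0 ± 28.0 CPM (SD, n = 4) on high-fat diet at week 1 to 149.7 ± 58.6 CPM in control at week 1, and even these overlapped.

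miR-132-5p, the less abundant arm of the same hairpin, held 32.8, 23.8, 35.9 and 36.6 CPM in control and 37.7, 29.2, 51.3 and 21.2 CPM on high-fat diet at day 1. At week 1 it held 27.3, 23.3, 20.8 and 27.7 CPM in control and 25.7, 18.8, 22.9 and 30.1 CPM on high-fat diet. At week 3 the values were 28.0, 24.7, 21.9 and 30.4 CPM in control and 23.4, 27.1, 36.1 and 40.4 CPM on high-fat diet. The diets overlapped at each time. The 3 highest libraries were all high-fat, replicates 3 and 1 of day 1 and replicate 4 of week 3, while replicate 4 of day 1 and replicate 1 of week 3 lay well below them. Group means ran from 24.4 ± 4.77 CPM (high-fat, week 1) to 34.8 ± 12.9 CPM (high-fat, day 1).

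miR-212-5p held 6.28, 10.8, 8.37 and 8.55 CPM in control and 9.81, 9.16, 6.87 and 6.41 CPM on high-fat diet at day 1. At week 1 it held 6.45, 6.63, 9.43 and 9.86 CPM in control and 11.8, 6.61, 8.98 and 5.93 CPM on high-fat diet. At week 3 it held 9.47, 10.1, 11.3 and 6.54 CPM in control and 5.85, 8.76, 10.1 and 5.30 CPM on high-fat diet. No group stood apart, and group means lay between 7.50 ± 2.31 and 9.35 ± 2.01 CPM (SD, n = 4), the lowest in high-fat and the highest in control libraries at week 3.

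miR-212-3p, which carries the miR-132-3p seed, held 7.69, 8.19, 4.37 and 9.54 CPM in control and 9.46, 8.66, 6.01 and 9.86 CPM on high-fat diet at day 1. At week 1 the control values were 5.20, 5.94, 6.03 and 9.93 CPM and the high-fat values 6.13, 5.76, 6.80 and 7.63 CPM. At week 3 they were 3.96, 4.91, 5.13 and 10.2 CPM in control and 7.55, 7.70, 4.23 and 2.65 CPM on high-fat diet. The highest and the lowest of the 24 libraries were thus both from week 3. The lowest, high-fat replicate 4, rested on 8 counts (95% exact Poisson interval 1.14 to 5.23 CPM, counting error only). Replicate 4 was the highest of its group in every group except high-fat week 3, where it was the lowest. Group means ran from 5.53 ± 2.50 CPM (high-fat, week 3) to 8.499 ± 1.73 CPM (high-fat, day 1).

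**Figure D1:**
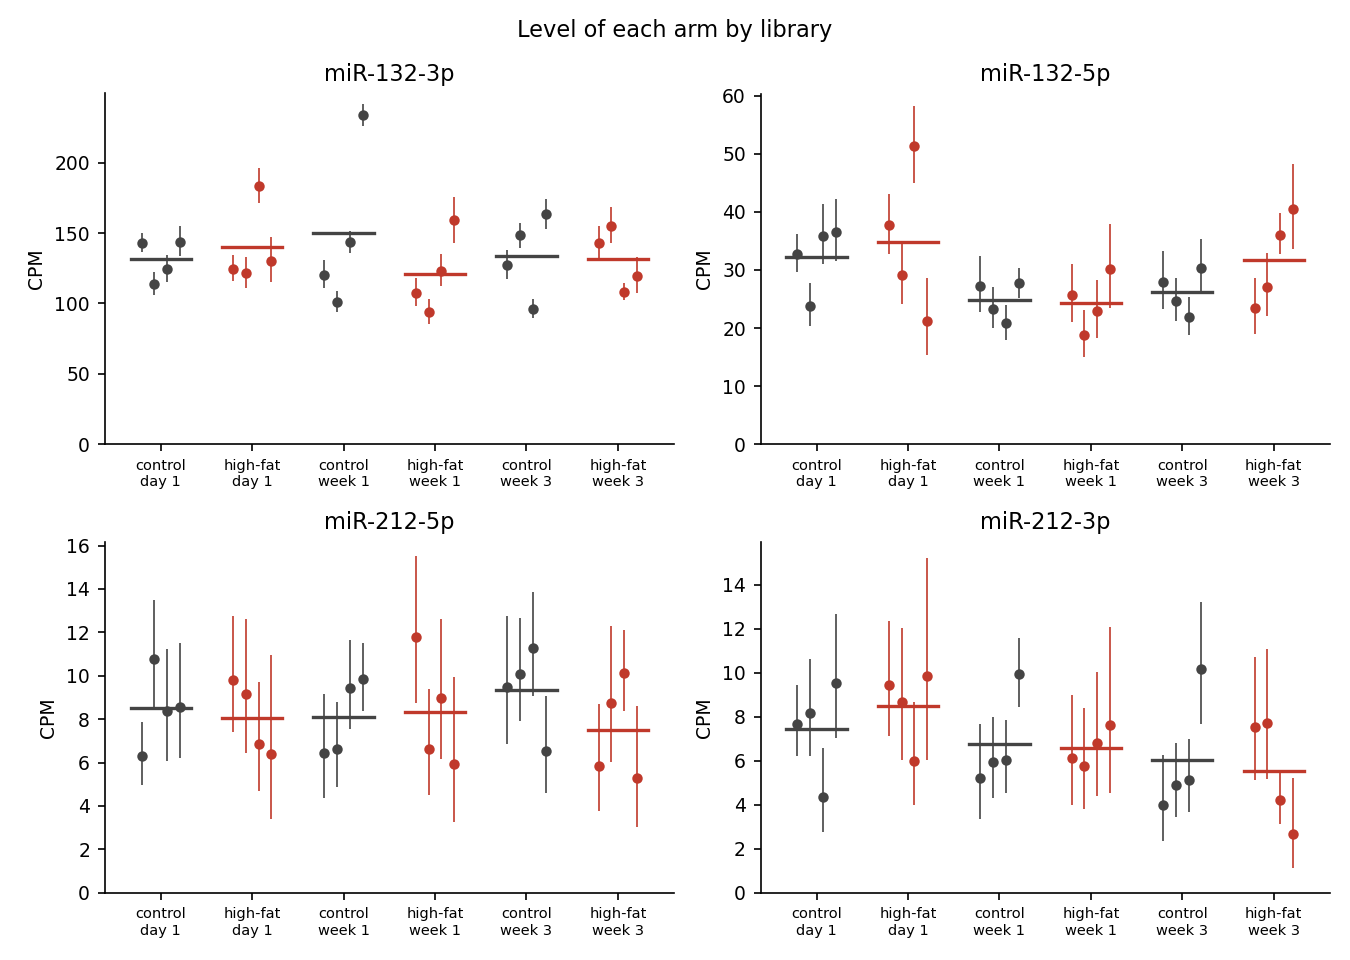
Level of each arm (CPM, vertical axis from 0) in every library by group, control in grey and high-fat in red; whiskers are 95% exact Poisson intervals and horizontal lines are group means. The diets overlap at each time for all 4 arms, and the highest miR-132-3p value is 233.7 CPM in control week 1 replicate 4.

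The diet was compared within each time, as a mean over the 3 times and in a joint test of whether its effect differed between times, with edgeR's quasi-likelihood test over all 558 miRNAs. None of the 4 arms passed an adjusted p of 0.05 in any of these 5 comparisons. The background was as low: 0% of the 558 miRNAs passed at day 1, at week 1, at week 3, for the mean diet effect and in the joint test. DESeq2 also passed 0 in each, and limma-voom 17 at week 1, none of them a member, and 0 elsewhere. Without control week 1 replicate 4, edgeR passed 22 of 566 miRNAs at week 1, again none of them a member. At an unadjusted p under 0.05, 0 of the 4 arms passed in each diet comparison, against 3.05% of all tested miRNAs at day 1, 14.2% at week 1, 1.79% at week 3, 3.23% for the mean effect and 7.35% in the joint test.

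The largest diet difference of miR-132-3p was at week 1, with a log2 fold change (high-fat over control) of -0.31 ± 0.24 (SE, edgeR adjusted p = 0.54). That value turned to 0.03 without control week 1 replicate 4, and to 0.10 without the 3 libraries highest in muscle markers, of which that library is one. miR-132-5p differed most at week 3, by 0.28 ± 0.24 (adjusted p = 0.999), and miR-212-5p by -0.29 ± 0.26 at week 3 (adjusted p = 0.999). miR-212-3p differed by 0.18 ± 0.33 at day 1 (adjusted p = 0.982). Averaged over the 3 times, the log2 differences were -0.08 ± 0.14 for miR-132-3p, 0.12 ± 0.14 for miR-132-5p, -0.10 ± 0.15 for miR-212-5p and -0.01 ± 0.19 for miR-212-3p. All 16 of the 95% intervals of the diet contrasts lay within a 2-fold change in either direction. The mean effect of miR-132-3p was bounded to between 0.778 and 1.15-fold, and that of miR-212-3p to between 0.759 and 1.30-fold.

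Time was compared with day 1 within each diet. Again 0 of the 4 arms passed at an adjusted p under 0.05 in edgeR, against 0.179% of the tested miRNAs for week 1 in control, 0% for week 1 on high-fat diet, 0.358% for week 3 in control and 0% for week 3 on high-fat diet. DESeq2 passed 7, 32, 6 and 11 miRNAs in these comparisons and limma-voom 22, 44, 4 and 14, none of them a member. Without control week 1 replicate 4, edgeR passed 13 for week 1 in control, none a member. At an unadjusted p under 0.05, 13.6%, 20.6%, 14.9% and 15.8% of all tested miRNAs passed. Of the arms, 1 did: miR-132-5p on high-fat diet at week 1 against day 1, at a log2 fold change of -0.53 ± 0.24 (edgeR adjusted p = 0.208). This is a single pass among 32 tests of an arm in a contrast. The value was -0.36 without high-fat day 1 replicate 3 and -0.78 without high-fat day 1 replicate 4.

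The largest difference of any arm was that of miR-212-3p on high-fat diet, at -0.61 ± 0.34 for week 3 against day 1 (edgeR adjusted p = 0.358). Without high-fat week 3 replicate 4, the library with 8 counts, it was -0.45. In that comparison the estimates of all 4 arms were below 0, with a median of -0.12. Over all tested miRNAs 274 were below 0 and 284 above, with a median of 0.00. The other arms were at -0.09 ± 0.24 (miR-132-3p), -0.14 ± 0.24 (miR-132-5p) and -0.09 ± 0.27 (miR-212-5p). Each of these turned positive in some fit with libraries left out. In no other contrast were all 4 arms on the same side of 0. None of the 28 pairs of groups of an arm that were compared was free of overlap. The share of all tested miRNAs free of overlap was not counted, so this cannot be read as particular to the arms.

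**Figure D2:**
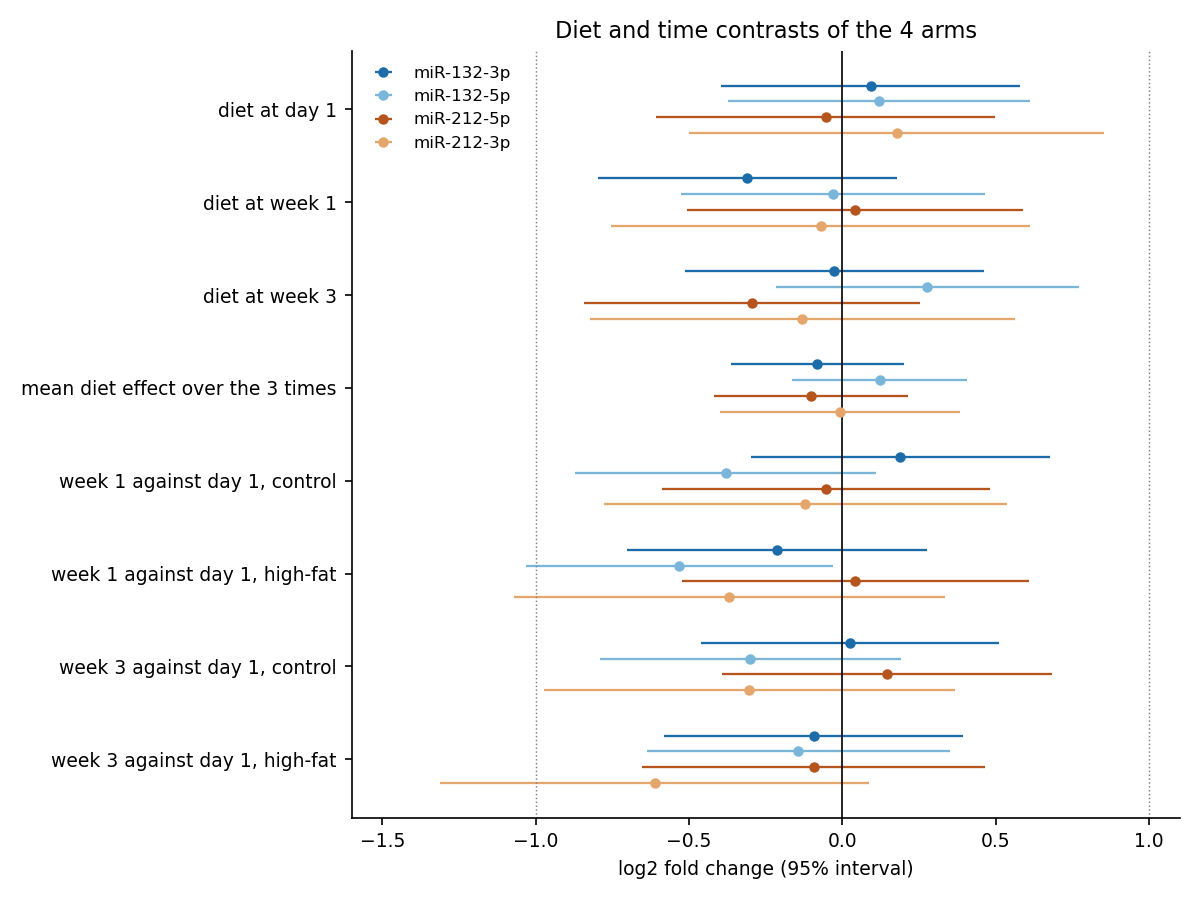
log2 fold change (horizontal axis) of the 4 arms in 8 contrasts, high-fat over control or later time over day 1. Bars are 95% intervals computed from edgeR's F statistics, and dotted lines mark 2-fold. The interval of 1 contrast, miR-132-5p at week 1 on high-fat diet, excludes 0, and all 16 diet intervals lie inside the dotted lines.

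The spread between libraries of a group was within the range of other miRNAs at these levels. The within-group SD of log2 CPM was 0.33 for miR-132-3p, 0.33 for miR-132-5p, 0.35 for miR-212-5p and 0.46 for miR-212-3p, beside a median of 0.43 over the 558 tested. Of the 50 miRNAs nearest in level to each arm, 24 had a lower SD than miR-132-3p, 9 than miR-132-5p, 17 than miR-212-5p and 27 than miR-212-3p. Counting error alone, at the median counts of 684, 166.5, 43 and 33, gives a coefficient of variation of 3.82%, 7.75%, 15.2% and 17.4%.

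**Figure D3:**
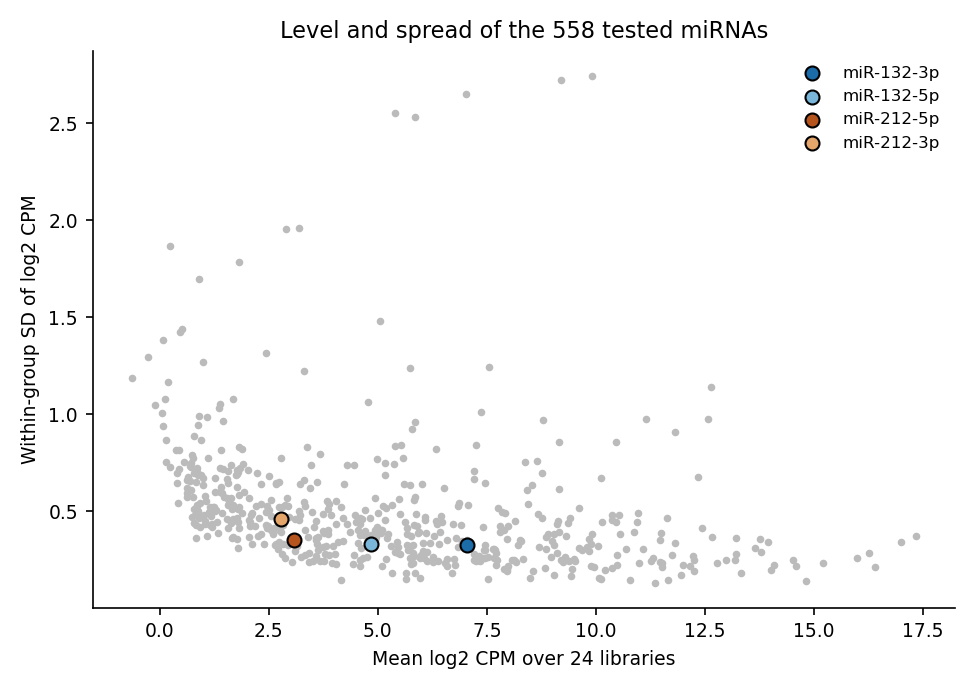
Within-group SD of log2 CPM against mean log2 CPM for the 558 tested miRNAs (grey), with the 4 arms coloured. The arms lie inside the cloud, at SDs of 0.33 to 0.46.

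Ratios within a library do not depend on the scaling between libraries. miR-132-3p made up 82.1% ± 3.78 (SD, n = 24) of the miR-132 counts, and its count was 2.96 to 8.43 times that of miR-132-5p. The miR-212 arms were near parity, with miR-212-5p at 55.3% ± 9.79 of the miR-212 counts and a 5p to 3p ratio of 0.643 to 2.39. The 5p arm of miR-212 exceeded its 3p arm on average, whereas the 3p arm led in miR-132 in all 24 libraries. The summed miR-132 arms exceeded the summed miR-212 arms 7.19 to 20.1-fold. Of the counts with the shared seed, miR-132-3p held 93.0% to 97.8% and miR-212-3p the rest. Whether reads of one 3p arm were counted as the other was not checked, since that needs the reads, and this bears on the miR-212-3p level, on this share and on the correlation of the 3p arms.

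No arm or hairpin ratio passed its test between diets or between week 3 and day 1. Over 15 exact two-sided permutation tests of 4 libraries against 4, the smallest p was 0.114 and the smallest adjusted p 0.804; the smallest p this design allows is 0.0286. The p of 0.114 was for the miR-132-3p to miR-132-5p ratio in control, whose log2 mean was 2.33 ± 0.21 (SD, n = 4) at week 3 and 2.03 ± 0.20 at day 1 (exact permutation test). The groups overlapped in all 15.

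The miR-132-3p share was most spread in the high-fat libraries at week 3 (SD 6.17 percentage points, n = 4). The miR-132-3p share was 85.9% (95% Wilson interval 83.1 to 88.3) in replicate 1 and 85.1% (82.3 to 87.6) in replicate 2. In replicates 3 and 4 it was 75.0% (72.8 to 77.0) and 74.7% (70.7 to 78.4). This group is described because its SD was the largest, and the intervals cover counting error only. The miR-212-5p share was 43.6% and 53.2% in replicates 1 and 2 and 70.5% and 66.7% in replicates 3 and 4. The 3p share of both hairpins was thus lower in replicates 3 and 4 than in replicates 1 and 2. With 24 to 166 miR-212 counts in these libraries, the Wilson intervals of the miR-212-5p share were wide, for example 46.7 to 82.0 in replicate 4.

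**Figure D4:**
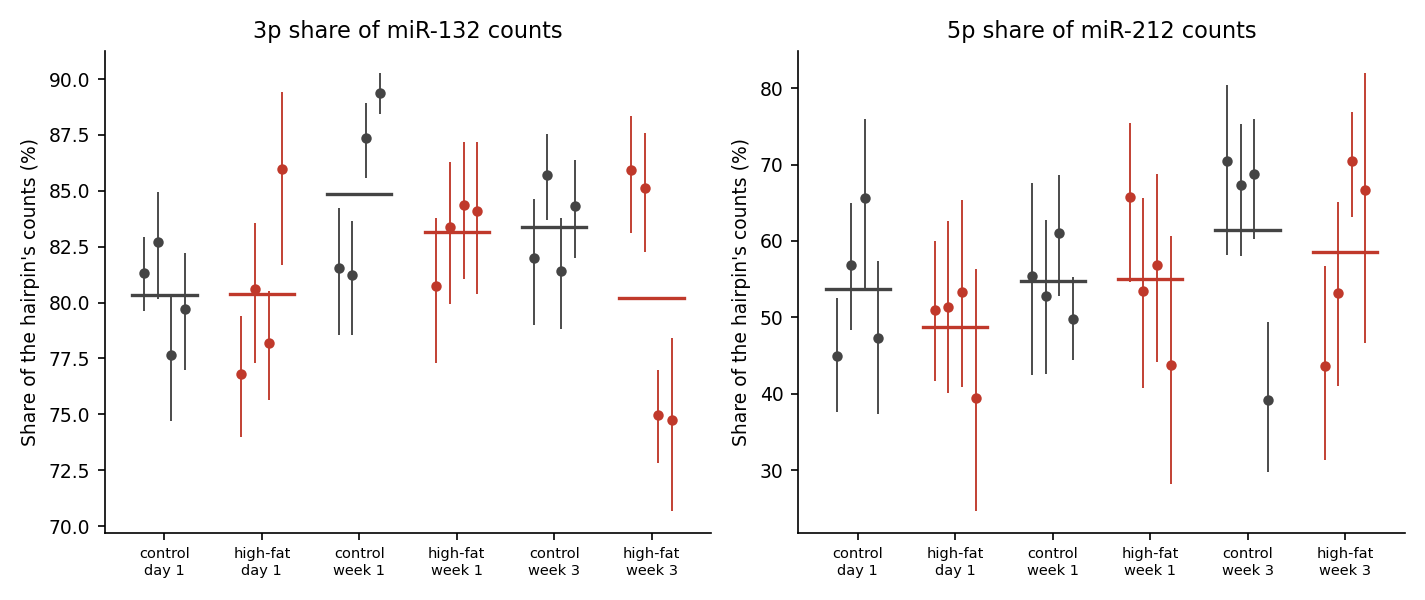
Share (%) of each hairpin's counts from miR-132-3p (left) and from miR-212-5p (right) in every library by group, control in grey and high-fat in red, with 95% Wilson intervals and group means; the vertical axes do not start at 0. High-fat week 3 holds miR-132-3p shares of 85.9%, 85.1%, 75.0% and 74.7%.

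Although the hairpins share a transcript, correlations between the arms over libraries were weak. Counting error, a coefficient of variation of 15.2% for miR-212-5p and 17.4% for miR-212-3p at their median counts, lowers such correlations. How far it did so was not tested. Over 24 libraries, miR-132-3p and miR-212-3p had Pearson's r = 0.42 (permutation p = 0.0429, adjusted over 6 arm pairs 0.258) and Spearman's rho = 0.47 (permutation p = 0.0214, adjusted 0.129). Without the 2 libraries farthest from the median of miR-132-3p, r was 0.39, and for deviations from the 6 group means it was 0.45. The arms of the miR-132 hairpin had r = 0.34 (permutation p = 0.1, adjusted 0.301) and rho = 0.33 (permutation p = 0.122, adjusted 0.366). Those of the miR-212 hairpin had r = 0.04 (permutation p = 0.847, adjusted 0.847) and rho = -0.06 (permutation p = 0.776, adjusted 0.931). None of the 6 pairs passed an adjusted p of 0.05 by either measure.

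By likeness over the 24 libraries, given as a description, the miRNAs closest to miR-132-3p were miR-34c-5p (r = 0.77), miR-152-5p (0.69), miR-455-5p (0.64), miR-574-3p (0.63) and miR-324-5p (0.61). Among the 557 others, miR-212-3p ranked 40, miR-132-5p 63 and miR-212-5p 388. Closest to miR-212-5p were miR-125b-5p (r = 0.66), miR-429-3p (0.65), miR-196b-5p (0.63), miR-200b-3p (0.62) and miR-193a-3p (0.60). By Spearman's rho, 3 of the 5 closest to miR-132-3p and 2 of the 5 closest to miR-212-5p were again among the closest 5, with miR-324-5p at rank 21 and miR-193a-3p at rank 33.5. These values share library depth and scaling.

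miR-200b-3p and miR-429-3p belong to the miR-200 family, which marks epithelial cells. The mean log2 CPM of 7 epithelial markers (all past the filter) and miR-212-5p had r = 0.61 (permutation p = 0.00102, adjusted 0.0286 over 28 relations of an arm with a marker mean). Spearman's rho was 0.46 (permutation p = 0.0263, adjusted 0.369), which does not pass. By rho the strongest relation of miR-212-5p was a negative one with the mean of 5 adipocyte markers, at rho = -0.52 (permutation p = 0.011, adjusted 0.309) and r = -0.43 (permutation p = 0.0346, adjusted 0.308), and r was -0.47 without 2 libraries. For the epithelial markers, r was 0.48 without the 2 libraries farthest from the median of their mean, and within groups, as deviations from group means, it was 0.63. The summed epithelial markers ranged from 13010 to 18618 CPM in control and 10310 to 17178 CPM on high-fat diet at day 1, 12759 to 16416 and 8761 to 39056 CPM at week 1, and 14741 to 21135 and 8510 to 20503 CPM at week 3. The highest, high-fat week 1 replicate 1, was also the highest in miR-212-5p, at 11.8 CPM. The part of epithelial cells in the miR-212-5p level was not tested. The partner arm, miR-212-3p, had r = 0.17 with the same markers (permutation p = 0.435, adjusted 0.88), and none of the other 27 relations passed by Pearson's r and none of the 28 by Spearman's rho.

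**Figure D5:**
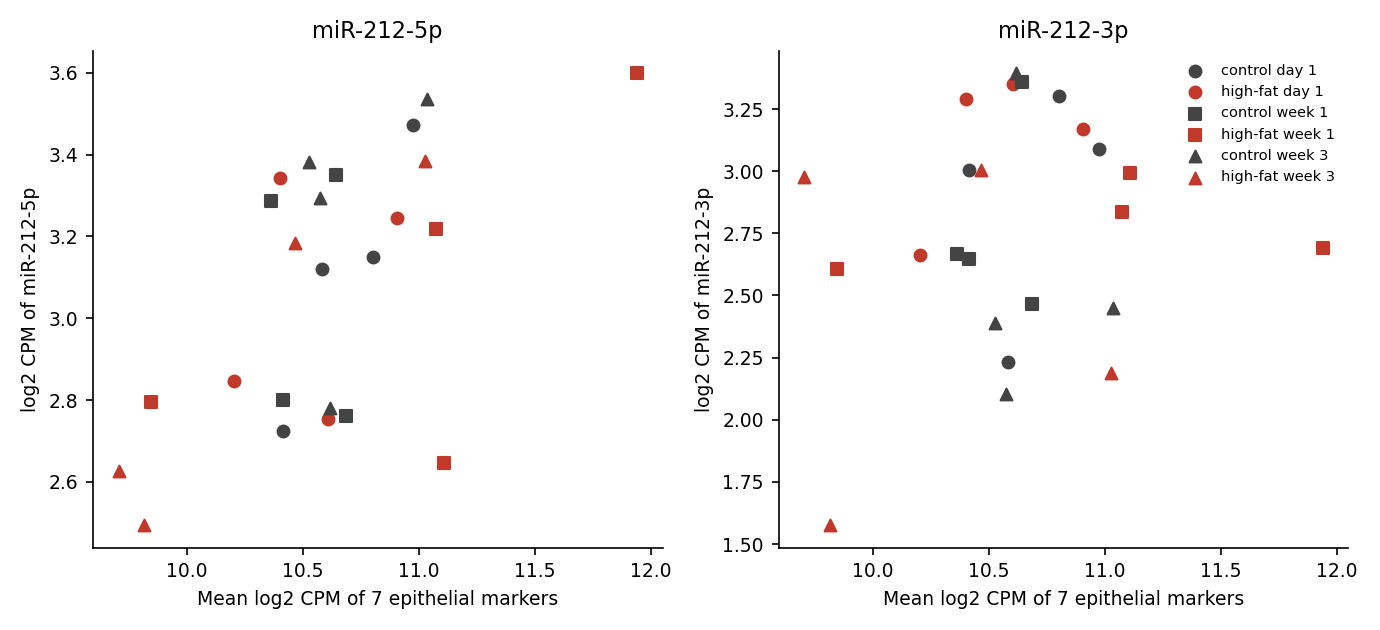
log2 CPM of miR-212-5p (left) and miR-212-3p (right) against the mean log2 CPM of 7 epithelial markers, 1 point per library; colour is diet (grey control, red high-fat) and shape is time. Pearson's r is 0.61 on the left and 0.17 on the right.

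Lists of other miRNAs known from the settings in which the cluster is induced were read beside it. Of 14 neuron-enriched miRNAs 9 were tested, of 11 Toll-like receptor-induced miRNAs 11, and of 12 endothelial and angiogenic miRNAs 11. The limit on reads that map to several places, given above for the markers, holds for these lists too. None of them passed an adjusted p of 0.05 in edgeR in any of the 8 contrasts, beside 0% to 0.358% of all tested miRNAs. Calls of list members were not counted in DESeq2 or limma-voom. For the mean diet effect, the estimates of 2 neuron-enriched miRNAs were above 0 and 7 below, with a median of -0.04 on the log2 scale, beside 225 above and 333 below (median -0.04) over all tested miRNAs. The Toll-like receptor list had 3 above and 8 below (median -0.13), and the endothelial list 6 above and 5 below (median 0.00). The number of estimates above 0 in each list differed between times, and whether a list changed was not tested. At day 1, week 1 and week 3 in turn, the neuron-enriched list had 6, 4 and 6 of 9 above 0 (medians 0.11, -0.02 and 0.12), and the Toll-like receptor list 4, 5 and 9 of 11 (medians -0.07, -0.24 and 0.07). The endothelial list had 3, 8 and 4 of 11 above 0 (medians -0.08, 0.14 and -0.07). Over all tested miRNAs 270, 271 and 234 were above 0 (medians -0.01, -0.02 and -0.05). The most abundant members were miR-218-5p at 1952 CPM, miR-21a-5p, a miRNA raised in inflammation, at 66317 CPM, and miR-126a-3p, the endothelial miRNA, at 88133 CPM. Their mean diet effects were -0.01, -0.10 and 0.00. At week 1, 3 of the 11 Toll-like receptor-induced miRNAs had an unadjusted p under 0.05, beside the 14.2% of all tested miRNAs. These 3, named after their values were seen, were miR-155-5p (-1.49 ± 0.62), miR-155-3p (-1.28 ± 0.57) and miR-21a-3p (-0.66 ± 0.25), with edgeR adjusted p from 0.225 to 0.298. The 6 leukocyte markers, of which miR-155-5p is one, summed to 8648 to 41901 CPM in control and 3319 to 17005 CPM on high-fat diet at week 1, and their part in these values was not tested. miR-132-3p, at 134.5 CPM, lay below miR-146a-5p, another Toll-like receptor-induced miRNA, at 5810 CPM, on a scale that does not correct for differences in cloning efficiency between sequences.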

How the data were processed

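Small RNA libraries were made with a NEBNext kit from 1 μg of TRIzol-purified total RNA, per the labels' protocols. The authors deposited raw read counts per mature miRNA name. The submitters' processing notes list Bowtie2, featureCounts, FastQC and Trim Galore, and build mm10, while versions, annotation and the handling of multi-mapping reads were not stated in sources used here. Groups and replicate numbers came from the titles. The 558 miRNAs kept by filterByExpr (minimum count 10, minimum total 15) were fitted in 1 cell-means model with edgeR 4.0.16 in R 4.3.3 (TMM, quasi-likelihood, Benjamini-Hochberg adjusted p under 0.05). The SE of a log2 fold change was its absolute value over the square root of edgeR's F statistic, and its interval used t quantiles. DESeq2 1.42.0 and limma 3.58.1 were alternatives. Log2 values for spread and likeness used a prior count of 2; ratios used a pseudocount of 0.5 counts and exact permutation tests (scipy 1.17.1), correlations 100000 permutations. Same-numbered libraries were not treated as pairs in the main fit, and 21 of 60 such pairs had a correlation over 0.1. The mean correlation, on deviations from group means, was -0.035 for same-numbered and 0.012 for different-numbered libraries of different groups. Whether the same-numbered ones shared a batch was not tested. No 2 libraries of a group agreed within sampling noise (lowest chi-square per degree of freedom 155.4). Scripts were tested on simulated data. Named miRNAs were the 4 arms, the 5 most like miR-132-3p and the 5 most like miR-212-5p, and up to 3 abundant members per list. Members and lists were chosen with earlier results of these data known.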

Additional observations from a re-analysis of the deposited data

Results flagged for a closer look

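Of 42 groups of 4 libraries checked for a library far from the others, 4 held one, where chance flags about 1 in 20. miR-132-3p stood at 183.7 CPM in high-fat day 1 replicate 3. In the same library the log2 ratio of the summed miR-132 arms to the summed miR-212 arms was 4.18, far above the other 3. That ratio was 2.84 in control week 3 replicate 3, far below its group. The log2 ratio of miR-212-5p to miR-212-3p was -0.63 in control week 3 replicate 4, the only library of that group with more 3p than 5p counts. In replicate 4 this ratio was also negative at day 1 (control -0.157, high-fat -0.603) and week 1 (control -0.009, high-fat -0.351). It was 0.957 in high-fat week 3 replicate 4. Replicate 1 was negative in control day 1 (-0.29) and high-fat week 3 (-0.363).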

How the results depend on the processing

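The number of arms past an adjusted p of 0.05 was 0 in each comparison under each setting run, the lowest adjusted p of an arm being 0.126; a mean CPM of at least 10 removes both miR-212 arms. Of 320 fold changes without 1 library, 49 changed sign, and of 268 under other settings 34; of 120 ratios 18, and of 45 ratios 1. The fold changes that reversed were at most 0.31 from 0 in the main fit and at most 0.28 from 0 after reversal. The cause of the sign changes was not tested. With RLE size factors, the log2 value was 0.0088 for miR-132-5p (week 1), 0.023 for miR-132-3p (week 3), 0.030 for miR-212-3p (mean diet), -0.00016 for miR-212-5p (week 1 to day 1 in high-fat) and -0.0038 for miR-132-3p (week 3 to day 1 in control). With library totals alone, the log2 value was 0.0055 for miR-132-5p (week 1). With no filter on low counts, the log2 value was 0.0094 for miR-132-3p (week 3) and -0.049 for miR-132-3p (week 3 to day 1 in control). With a mean CPM of at least 10, the log2 value was 0.0071 for miR-132-5p (week 1), 0.078 for miR-132-3p (week 3) and -0.029 for miR-132-3p (week 3 to day 1 in control). In DESeq2, the log2 value was 0.0036 for miR-132-5p (week 1), 0.022 for miR-132-3p (week 3), 0.026 for miR-212-3p (mean diet), -0.00088 for miR-212-5p (week 1 to day 1 in high-fat) and -0.0043 for miR-132-3p (week 3 to day 1 in control). In limma-voom with quality weights, the log2 value was 0.071 for miR-212-5p (day 1), 0.095 for miR-132-5p (week 1), 0.11 for miR-212-3p (week 1) and 0.13 for miR-212-3p (mean diet). With a replicate block, the log2 value was 0.041 for miR-212-3p (mean diet). With only the groups compared, the log2 value was 0.00068 for miR-132-5p (week 1), -0.0092 for miR-212-5p (week 1 to day 1 in high-fat) and -0.018 for miR-132-3p (week 3 to day 1 in control). Without the 3 libraries highest in muscle markers, the log2 value was 0.10 for miR-132-3p (week 1), 0.15 for miR-132-5p (week 1), 0.25 for miR-212-3p (week 1), 0.018 for miR-132-3p (week 3), 0.071 for miR-212-3p (week 3), 0.069 for miR-132-3p (mean diet), 0.014 for miR-212-5p (mean diet), 0.16 for miR-212-3p (mean diet), -0.11 for miR-132-3p (week 1 to day 1 in control), 0.039 for miR-212-5p (week 3 to day 1 in high-fat) and -0.043 for miR-212 arm ratio (week 1). Leaving out 1 library, miR-132-3p ran from -0.047 to 0.18 (day 1), -0.11 to 0.038 (mean diet), -0.18 to 0.24 (week 1 to day 1 in control), -0.15 to 0.13 (week 3 to day 1 in control), -0.45 to 0.032 (week 1), -0.15 to 0.14 (week 3) and -0.22 to 0.037 (week 3 to day 1 in high-fat). For miR-132-5p the range was -0.096 to 0.33 (day 1), -0.11 to 0.11 (week 1) and -0.36 to 0.061 (week 3 to day 1 in high-fat). For miR-212-5p the range was -0.15 to 0.13 (day 1), -0.23 to 0.051 (week 1 to day 1 in control), -0.036 to 0.25 (week 3 to day 1 in control), -0.12 to 0.20 (week 1) and -0.19 to 0.12 (week 1 to day 1 in high-fat). For miR-212-3p the range was -0.057 to 0.14 (mean diet), -0.15 to 0.23 (week 1) and -0.29 to 0.28 (week 3). For miR-132 arm ratio the range was -0.16 to 0.13 (day 1) and -0.17 to 0.19 (week 3 to day 1 in high-fat). For miR-132 to miR-212 ratio the range was -0.25 to 0.12 (day 1) and -0.18 to 0.16 (week 3 to day 1 in control). For miR-212 arm ratio the range was -0.19 to 0.23 (week 1) and -0.62 to 0.11 (week 3). Over all tested miRNAs edgeR called 0 for diet at week 1, limma-voom 17 and edgeR without the muscle-high libraries 31 and without control week 1 replicate 4 alone 22; for week 1 against day 1 edgeR, DESeq2 and limma-voom called 1, 7 and 22 in control and 0, 32 and 44 on high-fat diet, and for week 3 against day 1 they called 2, 6 and 4 in control and 0, 11 and 14 on high-fat diet. Without 1 library, edgeR called 0 to 13 for week 1 and 0 to 4 for week 3 in control, 0 to 4 for week 1 and 0 to 2 for week 3 on high-fat diet, and 0 to 2 for the mean diet effect. The replicate numbers were not used as pairs in the main fit, and 7 of 24 libraries correlated best with their own number out of 4. Mean correlations were -0.035 for same-numbered and 0.012 for different-numbered libraries. Whether same-numbered libraries shared a batch was not tested. Depth limits the miR-212 arms, at 8 to 160 counts a library.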

Other observations

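The 3p to 5p log2 ratios of the 2 hairpins were set side by side after the data were seen. Over 24 libraries they had r = 0.37 (permutation p = 0.0743, adjusted over 3 relations 0.111) and rho = 0.31 (permutation p = 0.141, adjusted 0.211); without the 2 libraries farthest from the median of the miR-132 ratio r was 0.44, and for deviations from group means it was 0.55. The median 3p to 5p log2 ratio of 127 other hairpins, each with at least 5 counts per arm and library, spanned 0.20 over the libraries. It had r = 0.04 with the miR-132 ratio (permutation p = 0.867, adjusted 0.867) and r = -0.41 with the miR-212 ratio (permutation p = 0.0452, adjusted 0.111), so no relation passed after adjustment.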
